A study of Rattus norvegicus with 6 samples.

Results

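Endothelin and nitric oxide signalling was followed through 10 genes of the rat kidney inner medulla (IM): the ligand Edn1, its converting enzyme Ece1, the receptors Ednra and Ednrb, the nitric oxide synthases Nos1, Nos2 and Nos3, the soluble guanylyl cyclase subunits Gucy1a3 and Gucy1b3, and Npr1, the guanylyl cyclase that is the receptor for atrial natriuretic peptide. The genes were taken by name, and all 10 had a feature of their own among the 27321 features of the table. Current RefSeq names for Gucy1a3 and Gucy1b3 are Gucy1a1 and Gucy1b1. RNA for 6 libraries was taken from the papillary end of the IM (IM tip) of male Sprague-Dawley rats aged 3 months and of about 150 g. Each library is called a rat here, although the labels do not say whether RNA of several rats was pooled. The 3 STZ rats had been made diabetic with streptozotocin, a toxin of the pancreatic beta cell, injected into the tail vein at 62.5 mg/kg, and the 3 control rats had received vehicle. Tissue was taken 15 days after the injection, so the STZ rats model a short period of insulin-deficient diabetes. No gene had been altered in either group.

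Endothelin-1 is cut from an inactive precursor by endothelin-converting enzyme. In vessels it acts on the A receptor of smooth muscle and raises tone. In the collecting duct, a major site of its synthesis in the kidney, it acts on the B receptor and lowers sodium and water reabsorption, in part through nitric oxide. Nitric oxide is made from arginine by the synthases and binds the heme of soluble guanylyl cyclase, an alpha and beta pair, which then makes cGMP. Natriuretic peptide receptor 1 makes cGMP directly when its ligand binds outside the cell.

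The sequence around the RefSeq start of Edn1 is shown because this gene had the largest spread within groups of the 9 members tested. It covers 250 bases before the start and 50 after, on the minus strand of GRCr8 at chr17:22666638-22666937, which is a later build than the rn4 of the table. Capitals mark the matches to the motifs searched on both strands.
Edn1: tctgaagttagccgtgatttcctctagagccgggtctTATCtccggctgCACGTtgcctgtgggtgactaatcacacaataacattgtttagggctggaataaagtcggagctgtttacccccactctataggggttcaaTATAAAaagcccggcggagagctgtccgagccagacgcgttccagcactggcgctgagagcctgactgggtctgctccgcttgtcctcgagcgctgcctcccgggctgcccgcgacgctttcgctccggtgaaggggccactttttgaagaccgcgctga
The motifs were GATA, the hypoxia response core ACGTG, the TATA box TATAAA and the AP-1 motif TGANTCA. The first was matched on the minus strand as TATC, 213 bases before the start, and ACGTG on the minus strand as CACGT, 201 bases before it. TATAAA stood on the plus strand 110 bases before the start, and the AP-1 motif had 0 matches in these letters. An exact search misses sites that differ from its letters, so it does not show that AP-1 sites are absent. No match overlapped another. Of 33365 RefSeq promoters of the same length, 60.5% held the GATA motif, 19.3% the hypoxia response core, 14.2% the TATA box and 7.34% the AP-1 motif.

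The values are normalized counts, that is, the reads on a gene divided by the size factor of its library. Reads on features numbered between 3412311 and 5575171 per library, and each read counted for 0.763 to 1.11 normalized counts, depending on the library. The 95th percentile of 835 olfactory receptor genes, taken as background, ran from 1.86 in STZ replicate 1 to 10.02 in control replicate 3. Sums of the tissue's cell markers were compared as a check of the label. The 11 measured principal cell markers of the collecting duct summed to between 45560 and 70781 in control rats and between 56259 and 93339 in STZ rats, with none at 0. Fxyd4, named after its values were seen, had the largest single share of each of these sums. Markers of the thick ascending limb summed to between 1103 and 1894 in control and between 212 and 599 in STZ rats. Urothelial markers summed to between 85.4 and 132.5 in control and between 440.1 and 517.3 in STZ rats. Upk3a held most of the STZ sums, at between 332.4 and 367.0, beside 27.7 to 50.1 in control rats. Going by the suffix of the column names, taken as the sequencing lane, all control libraries were on lane 3, and STZ replicates 1, 2 and 3 on lanes 7, 6 and 8, which leaves lane confounded with condition: the 2 cannot be told apart. In bulk tissue, fewer cells of a type, less RNA per cell and a difference in the piece dissected cannot be told apart either. The part of dissection in these sums was not tested.

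None of the 9 members that could be tested differed between the groups at an adjusted p under 0.05 in limma, where 2.1% of the 13486 features tested passed, 1.17% with higher and 0.927% with lower values in STZ rats. Before adjustment, 0 of 9 had a p under 0.05, against 14.7% of all features, and the smallest unadjusted p among the members was 0.254. The median log2 fold change of the 9 was 0.22, beside 0.0056 over all features tested. A log2 fold change is the mean log2(normalized count + 1) of the STZ rats minus that of the control rats, and for low genes it understates the change. In exact two-sided permutation tests of 3 against 3 libraries, which cannot give a p under 0.1, the members ranged from 0.3 for Nos3 to 1.0 for Npr1. The control and STZ ranges overlapped for all 10, whereas they did not overlap for 20.3% of all features tested.

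**Figure D1:**
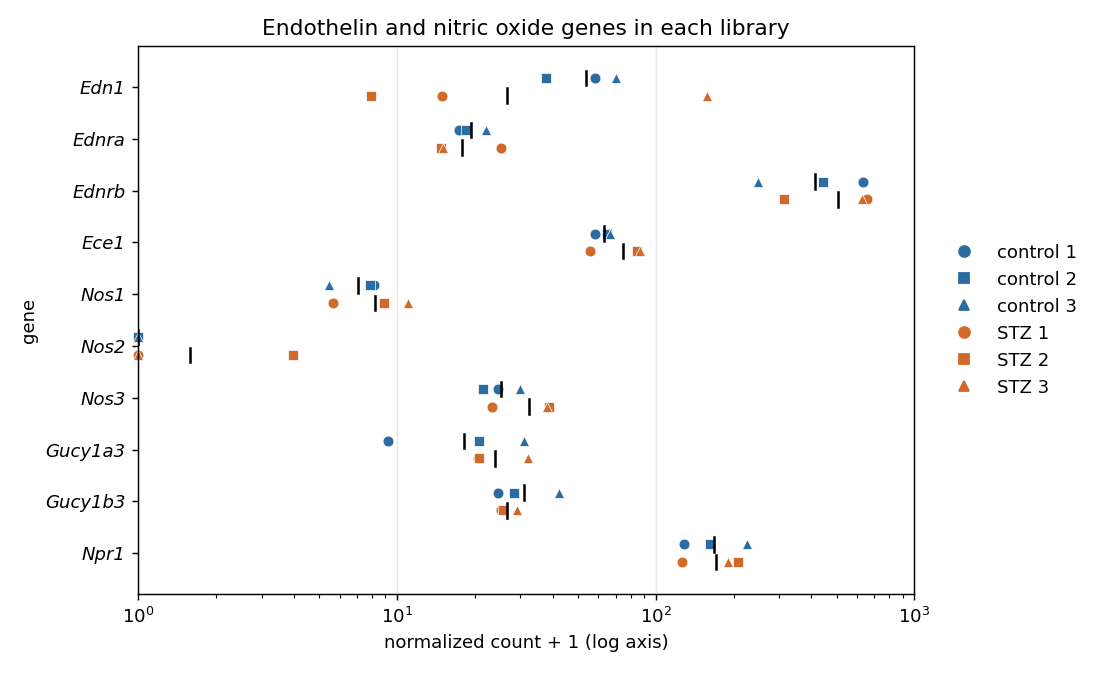
Normalized count + 1 of the 10 genes on a log axis, with a point for each library (blue, control; orange, STZ; the shape gives the replicate number) and a black tick at the mean of each group on the log2(normalized count + 1) scale. Edn1 in STZ rats runs from 6.92 to 157.6 normalized counts on both sides of the control points, and Nos2 lies at 0 in all libraries except STZ replicate 2.

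Edn1, on chr17:28303885-28309775 of rn4, gave 57.4, 36.6 and 69.0 normalized counts in control replicates 1, 2 and 3. In STZ replicates 1, 2 and 3 it gave 13.9, 6.92 and 157.6. STZ replicates 1 and 2 lay below every control rat and STZ replicate 3 lay above every control rat. These values stood on 56, 48 and 62 reads in control rats and on 15, 7 and 157 reads in STZ rats, and all 6 were above the olfactory background of their library. STZ replicate 3 was 11.3-fold above STZ replicate 1, 22.8-fold above STZ replicate 2 and 2.28-fold above the highest control rat. The lowest control rat was in turn 2.63-fold above STZ replicate 1 and 5.29-fold above STZ replicate 2. The residual SD of Edn1 on the log2 scale was 1.64, at percentile 98.5 of all features tested.

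Over all 6 libraries the log2 fold change of Edn1 was -1.01 (SE 0.84, 95% interval -2.87 to 0.84, n = 3 and 3), with an adjusted p of 0.672 in limma. The group means of the normalized counts, 54.3 ± 16.4 (SD, n = 3) in control and 59.5 ± 85.0 (SD, n = 3) in STZ rats, pointed the other way, with a log2 ratio of 0.13. The value turned on STZ replicate 3. Without it the log2 fold change was -2.30 (95% interval -3.20 to -1.40) with an adjusted p of 0.033, in a limma fit in which 1.23% of features passed. This library was singled out after its value was seen. With any other library left out the log2 fold change lay between -1.27 and -0.14, and the smallest adjusted p in those fits was 0.694. Within the STZ group, replicate 3 had the lowest sum of the 10 measured endothelial markers, 4991 against 5587 and 5580, and a principal cell sum of 74185 between the other two, 93339 and 56259. Its olfactory background of 9.03 was the highest of the STZ libraries, beside 1.86 and 5.93. The part of these in the Edn1 values was not tested.

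**Figure D2:**
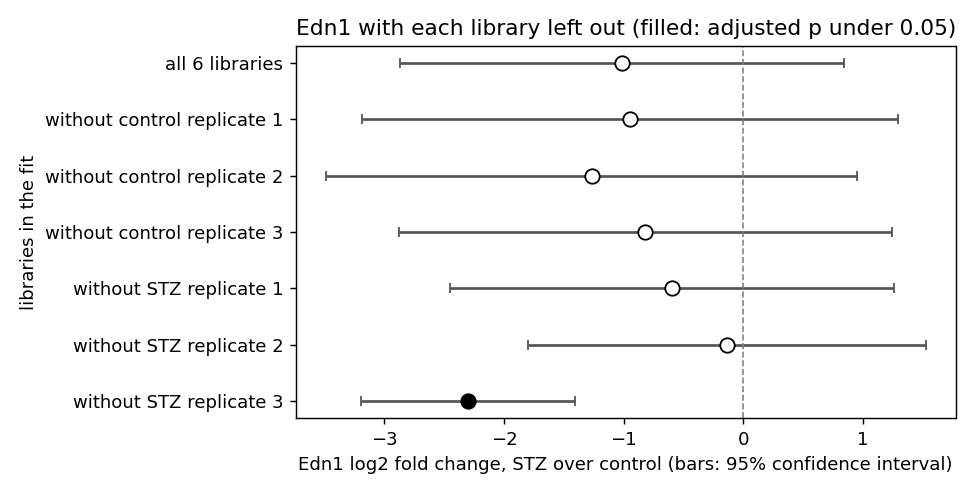
Log2 fold change of Edn1, STZ over control, with its 95% confidence interval from limma, for all 6 libraries and with each library left out in turn; a filled point has an adjusted p under 0.05. The interval spans 0 in every fit except the one without STZ replicate 3, at -2.30.

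Ece1, the enzyme that releases active endothelin-1, lies on chr5:156635620-156737433. It was measured at 57.4, 64.1 and 65.7 normalized counts in control and 54.8, 84.1 and 86.3 in STZ replicates 1, 2 and 3. STZ replicates 2 and 3 were above all control rats and STZ replicate 1 was below them. On the log2 scale the difference was 0.24 (SE 0.24, adjusted p = 0.754 in limma), and its 95% interval ran from 0.818-fold to 1.70-fold.

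Ednra, the receptor of vascular smooth muscle, on chr19:32042365-32108153, gave 16.4, 17.5 and 21.1 normalized counts in control and 24.1, 13.8 and 14.1 in STZ replicates 1, 2 and 3. Here STZ replicate 1 was the highest of all 6 libraries and the other two STZ rats were the lowest. The log2 fold change was -0.12 with an SE of 0.35 (adjusted p = 0.944 in limma) and an interval from 0.539-fold to 1.58-fold. Smooth muscle and pericyte markers summed to between 516.7 and 569.9 in control and between 889.4 and 1000 in STZ rats over 6 measured genes. The actin-binding protein gene Tagln (log2 fold change 1.34, adjusted p = 0.0058) and the pericyte proteoglycan gene Cspg4 (2.04, adjusted p = 0.020) were higher in STZ rats in the same limma fit. Tagln held most of the sum in STZ rats, at between 543.1 and 583.6, and of the 6 markers 3 had a log2 fold change above 0 and 3 below, the latter being Mcam (-0.36), Des (-0.23) and Pdgfrb (-0.16), which did not pass. The part of these markers in the Ednra values was not tested.

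Ednrb, the receptor that the collecting duct and endothelium use, on chr15:87893158-87898699, gave 634.6, 440.9 and 247.1 normalized counts in control and 654.6, 312.6 and 625.4 in STZ replicates 1, 2 and 3. Both groups held high and low rats, and the ranges largely coincided. The means were 440.9 ± 193.7 and 530.9 ± 189.6 (SD, n = 3 each). Its log2 fold change of 0.30 (SE 0.36) did not pass the test in limma, with an adjusted p of 0.816 and an interval from 0.713-fold to 2.11-fold.

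The balance of the receptors was taken within each library as log2((Ednrb + 1)/(Ednra + 1)), which cancels the size factor apart from the added 1. This log2 ratio was 5.19, 4.57 and 3.49 in control and 4.70, 4.40 and 5.38 in STZ replicates 1, 2 and 3. The group difference of 0.41 had p = 0.5 in the exact two-sided permutation test, and without control replicate 3 it was -0.055. Control replicate 3 held the lowest ratio and STZ replicate 3 the highest. Transcript lengths were not used here, so the ratio is compared between libraries only and says nothing of which receptor was the more abundant.

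Nos1, the neuronal synthase, which the collecting duct also uses, lies on chr12:39811144-39869484 and was near background. It gave 7.18, 6.86 and 4.45 normalized counts in control and 4.64, 7.91 and 10.04 in STZ replicates 1, 2 and 3, on 4 to 10 reads each. It was above the olfactory background in 5 of 6 libraries, the exception being control replicate 3. Its log2 fold change of 0.22 did not pass (SE 0.56, adjusted p = 0.929 in limma), and the interval from 0.495-fold to 2.74-fold leaves a wide range of differences that were not detectable at this depth.

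Nos2, the inducible synthase, on chr10:65036883-65072453, had 0 reads in 5 libraries and 3 reads, or 2.97 normalized counts, in STZ replicate 2. No library exceeded the floor of 3 reads, which was worth between 2.29 and 3.34 normalized counts, and the gene was under the filter and was not tested. The floor covers counting error only, since the cDNA was amplified by PCR without molecular identifiers.

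Nos3, the endothelial synthase, on chr4:6158846-6179441, gave 23.6, 20.6 and 28.9 normalized counts in control and 22.3, 37.6 and 37.1 in STZ replicates 1, 2 and 3. STZ replicates 2 and 3 were above all control rats and STZ replicate 1 lay among them. A log2 fold change of 0.37 was fitted (SE 0.31, adjusted p = 0.672 in limma), with an interval from 0.808-fold to 2.06-fold. Endothelial markers moved in both directions beside it. Their sum over 10 measured genes was between 8314 and 10250 in control and between 4991 and 5587 in STZ rats, none being at 0. Emcn, a surface sialomucin of capillary and venous endothelium with the largest single share of this sum, was lower in STZ rats by limma (-1.38 on the log2 scale, adjusted p = 0.0068), as was Plvap, which forms the diaphragms of fenestrae (-1.01, adjusted p = 0.029). Vwf, the von Willebrand factor gene, was higher (1.97, adjusted p = 0.026 in limma). Their part in the Nos3 values was not tested.

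Gucy1a3, the alpha subunit of soluble guanylyl cyclase, lies on chr2:173755016-173818430, 19718 bases from the beta subunit gene Gucy1b3 on chr2:173683153-173735298. Gucy1a3 gave 8.20, 19.8 and 30.1 normalized counts in control and 19.5, 19.8 and 31.1 in STZ replicates 1, 2 and 3. Apart from control replicate 1, which rested on 8 reads, the libraries of both groups lay between 19.5 and 31.1. Gucy1b3 gave 23.6, 27.5 and 41.2 in control and 24.1, 24.7 and 28.1 in STZ replicates. All 3 STZ values of Gucy1b3 lay inside the control range. The log2 fold changes were 0.40 (SE 0.45, adjusted p = 0.790 in limma) for Gucy1a3 and -0.22 (SE 0.30, adjusted p = 0.847) for Gucy1b3, and their intervals ran from 0.667-fold to 2.61-fold and from 0.548-fold to 1.35-fold.

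Both subunits are needed for an active enzyme. The groups did not overlap in the balance of the subunits within a library, although they overlapped for each subunit alone. Of all single features tested, 20.3% likewise did not overlap between the groups. The ratio stood on 8 to 31 reads of Gucy1a3 and 23 to 37 reads of Gucy1b3 in a library. The log2((Gucy1a3 + 1)/(Gucy1b3 + 1)) was -1.42, -0.45 and -0.44 in control and -0.29, -0.31 and 0.14 in STZ replicates 1, 2 and 3. The difference between the groups was 0.62, with p = 0.1 in the exact two-sided permutation test, the smallest p that 3 against 3 can give. The gap between the highest control and the lowest STZ rat was narrow, and control replicate 1, with 8 reads of Gucy1a3, held the extreme value. Without that library the difference was 0.29, with p = 0.2 in the exact test, again the smallest p possible.

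**Figure D3:**
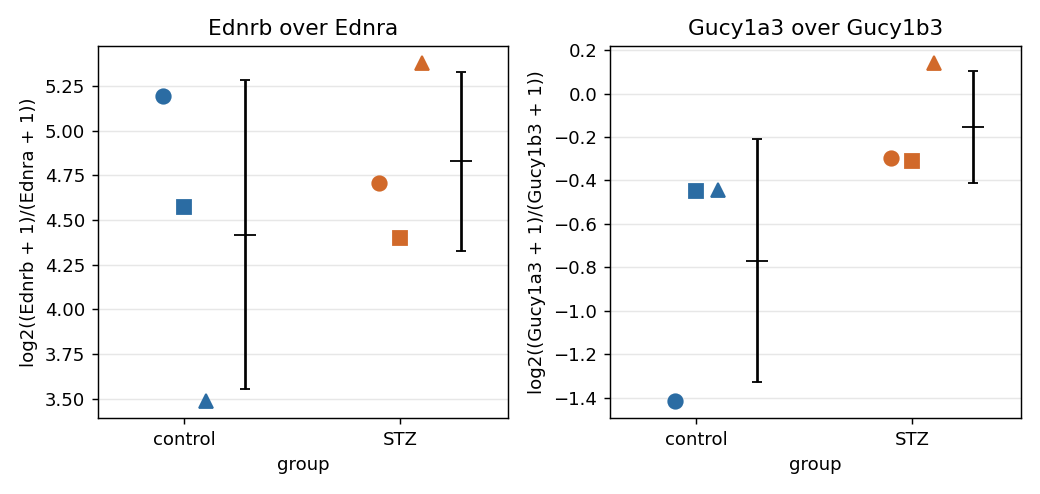
Within-library log2 ratios of Ednrb over Ednra (left) and Gucy1a3 over Gucy1b3 (right), with a point for each library, its shape giving the replicate number, and the mean with its SD (n = 3) beside each group. The receptor ratios overlap between the groups, whereas the cyclase ratios do not, control running from -1.42 to -0.44 and STZ from -0.31 to 0.14. Of all single features tested, 20.3% do not overlap either.

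Npr1, on chr2:182724915-182740242, gave 128.1, 161.7 and 224.8 normalized counts in control and 125.4, 207.7 and 188.7 in STZ replicates 1, 2 and 3. The groups covered nearly the same range, with means of 171.6 ± 49.1 and 173.9 ± 43.1 (SD, n = 3 each). The difference on the log2 scale was 0.03 (SE 0.26, adjusted p = 0.982 in limma), and the interval from 0.683-fold to 1.52-fold was, after Ece1, the narrowest among the members on the log2 scale. The loci of Nos3 and Npr1 were each overlapped by other features, 2 for Nos3 and 6 for Npr1. Their names include Nos3,Tomm7 at Nos3 and Jtb,Ilf2 at Npr1. Whether reads of these loci were counted there was not tested. No feature overlapped the other 8 members.

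**Figure D4:**
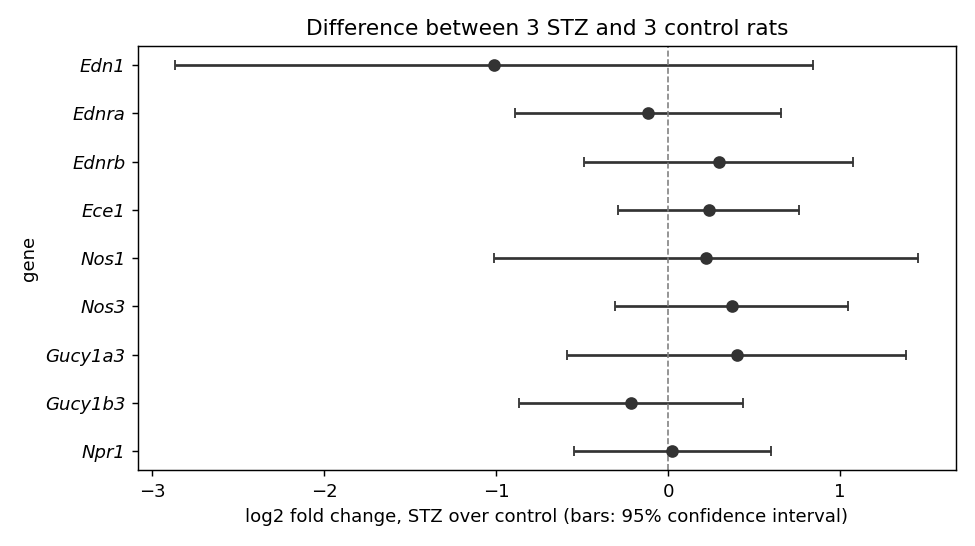
Log2 fold changes of the 9 tested genes, STZ over control, with 95% confidence intervals from limma (3 libraries a group). Every interval spans 0, and that of Edn1, from -2.87 to 0.84, is the widest.

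The other genes of the pathway were read from a list of 52, of which 42 had a feature of their own and 34 had a mean high enough to be tested. Of the rest, 8 were under the filter, 2 stood only in features whose names join several genes and 8 were not analysed here. One of the 34 passed the test, again beside 2.1% of all features. This was Ass1, argininosuccinate synthase, which makes the precursor from which cells regenerate arginine for the synthases. Ass1 gave 91.2, 135.8 and 99.1 normalized counts in control and 191.3, 221.6 and 200.8 in STZ replicates 1, 2 and 3, and all STZ rats were above all control rats. It rose by 0.92 on the log2 scale (SE 0.21, adjusted p = 0.049 in limma). The call lay close to the threshold: it passed in 6 of 16 alternative fits, with adjusted p-values between 0.021 and 0.20, and was lost with any library left out. At an unadjusted p under 0.05, 11 of the 34 passed, 8 higher and 3 lower in STZ rats, beside 14.7% of all features. The groups did not overlap for 7 genes that were higher and 3 that were lower, beside 10.1% and 10.3% of all features. The median log2 fold change of the 34 was 0.35.

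Among genes that process endothelins, Ece2, a second converting enzyme, gave 37.9, 34.3 and 28.9 normalized counts in control and 12.1, 10.9 and 18.1 in STZ replicates. Every STZ rat was below every control rat, with a log2 fold change of -1.27 (SE 0.32) and an adjusted p of 0.073 in limma. Mme, neprilysin, which degrades endothelins and natriuretic peptides, gave 62.5, 42.0 and 65.7 in control and 31.6, 27.7 and 30.1 in STZ replicates, likewise without overlap (log2 fold change -0.88, adjusted p = 0.121). Edn3, the gene of another endothelin, which was named here after its values were seen, gave 29.7, 27.5 and 17.8 in control and 68.7, 29.7 and 61.2 in STZ replicates (1.01, adjusted p = 0.193). These 3 were the only genes of their group to be tested, and none passed.

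Of 16 tested genes of synthase substrate, cofactor and binding partners, 9 had a log2 fold change above 0 and 7 below, with a median of 0.12, and Ass1 was the gene that passed.

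Of the other guanylyl cyclases and their ligands only 3 could be tested. Guca2b, the uroguanylin gene, gave 60.5, 22.1 and 36.7 normalized counts in control and 75.2, 288.8 and 30.1 in STZ replicates 1, 2 and 3. The related guanylin gene Guca2a, named after its values were seen, gave 12327, 8782 and 10093 in control and 17641, 27074 and 4990 in STZ replicates. In both, STZ replicate 2 was the highest and STZ replicate 3 the lowest of the STZ rats, the reverse of their order in Edn1. The log2 fold changes were 1.23 (adjusted p = 0.430) for Guca2b and 0.37 (adjusted p = 0.842 in limma) for Guca2a. That of Guca2b was 0.37 without STZ replicate 2 and 1.98 without STZ replicate 3.

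Of 12 tested cGMP effectors and phosphodiesterases, 11 had a log2 fold change above 0, beside 6814 of the 13486 features tested. The median was 0.41 over the 12, beside 0.0056 over all features tested, and none of the 12 passed the test. Mrvi1, a substrate of the cGMP-dependent kinase in smooth muscle, gave 5.13, 4.58 and 5.57 normalized counts in control and 17.6, 9.89 and 8.03 in STZ replicates (log2 fold change 1.01, adjusted p = 0.411 in limma). It was near background, and under the olfactory background in control replicates 2 and 3 and in STZ replicate 3. The gene with a log2 fold change below 0 was Pde5a, the cGMP phosphodiesterase. Its values were 9.23, 12.2 and 35.6 in control and 0.929, 13.8 and 26.1 in STZ replicates 1, 2 and 3. STZ replicate 1 held a single read of it, and the log2 fold change of -0.89 (SE 0.86, adjusted p = 0.736) was 0.24 without that library.

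**Figure D5:**
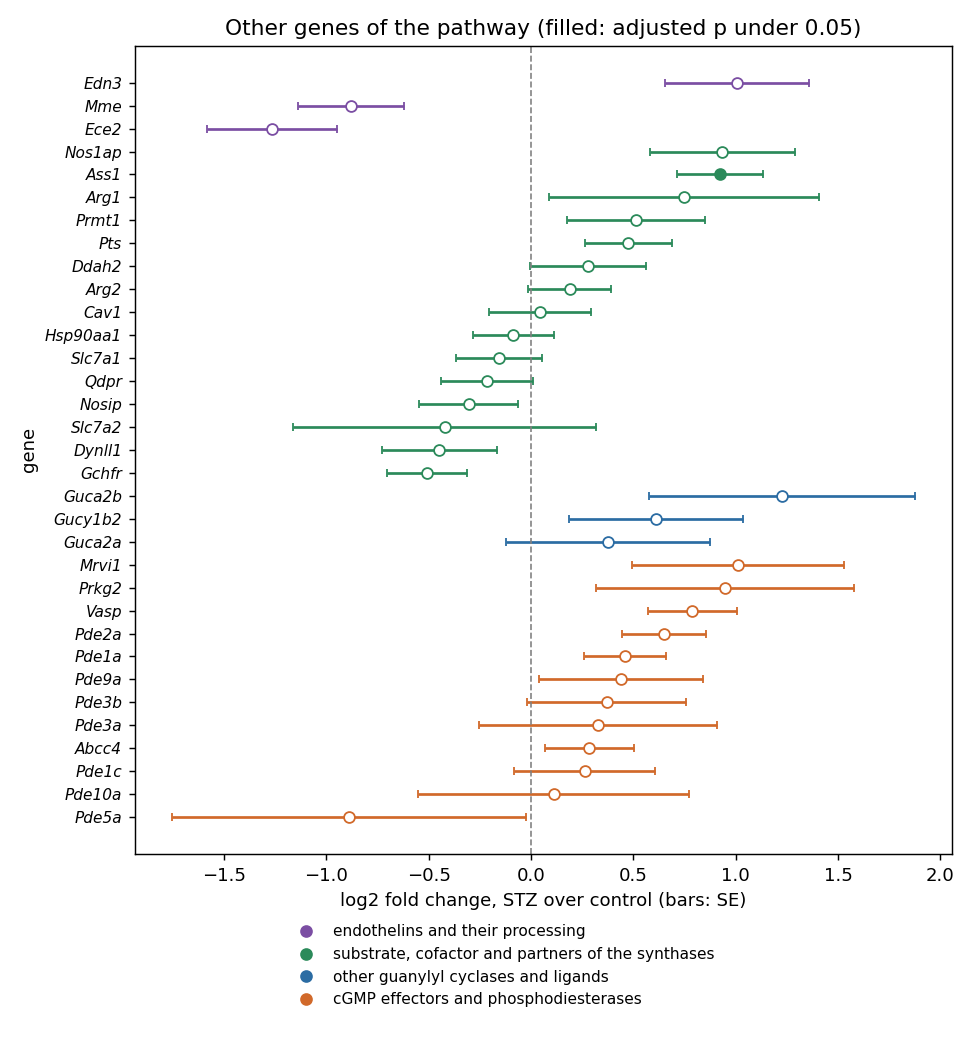
Log2 fold changes of the tested genes of the wider pathway that are reported here, STZ over control, with their SE from limma, grouped by role; a filled point has an adjusted p under 0.05. Ass1, at 0.92, is the filled point, and Ece2 and Guca2b are at the ends, at -1.27 and 1.23.

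The remaining marker lists are given for the cells that could carry these transcripts. Intercalated cell markers summed to between 2086 and 3834 in control and between 1629 and 2213 in STZ rats. Of 7 tested, 5 passed with lower values in STZ rats, beside 0.927% of all features. These were Atp6v1b1, Atp6v0d2, Atp6v1g3, Slc4a1 and Rhcg, with log2 fold changes from -1.89 to -1.10. Foxi1, named after its values were seen, was also lower, without overlap and without passing (-1.03, adjusted p = 0.201 in limma). Rhbg, an ammonia transporter gene named after its values were seen, lay the other way without passing, at 980.1, 738.4 and 763.6 normalized counts in control and 1585, 1505 and 1088 in STZ replicates (0.74, adjusted p = 0.107 in limma). Rhbg held most of each STZ sum of this list. In the thick ascending limb list Umod (-2.93) and Egf (-2.06) were lower, and in the proximal tubule list, which summed to between 193.8 and 362.9 in control and between 66.3 and 119.5 in STZ rats, Kap was lower (-2.31). Kap gave 174.3, 195.3 and 282.7 normalized counts in control and 65.0, 20.8 and 55.2 in STZ replicates, and so held most of the control sums, while the other 3 tested proximal markers did not pass, with log2 fold changes from -0.39 to 0.29. Thin limb markers summed to between 31596 and 44396 in control and between 29722 and 37540 in STZ rats, and leukocyte markers to between 687.9 and 2829 and between 1657 and 2750, with none passing. Cryab held most of each thin limb sum and Cd74 most of each leukocyte sum, both named after their values were seen. Pdgfra was higher (1.03) in the interstitial list, where 3 of 5 tested had a log2 fold change above 0 and 2 below. The sums of that list were between 7406 and 9041 in control and between 4711 and 10753 in STZ rats. Dcn, named after its values were seen, held most of each sum and did not pass (-0.37, adjusted p = 0.705 in limma). It gave between 6728 and 8304 in control and between 3307 and 9202 in STZ rats. Upk3a (3.30) and Upk1b (1.25) were higher in the urothelial list. The others tested there did not pass, with log2 fold changes from 0.04 to 0.96. The part of these cells in the values of the 10 genes was not tested.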

How the data were processed

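Per the labels and the study's methods, cDNA was amplified by PCR and sequenced on a HiSeq2000. STAR 2.3.1t placed reads on rn4, and those with a unique position were counted by the authors over Ensembl RGSC3.4 genes and scaled in DESeq 1.16.0. Which program counted, and whether it used strand, is not given in the sources used here. The deposited signal is the count divided by a size factor for each library, called a normalized count here. All 6 columns were matched to rats by their labels. In each library 100% of values fell on multiples of its own step, within 0.01 of a read, which gave the read numbers printed; values at or under 3 reads were taken as the floor.

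Groups were compared in R 4.3.3 by limma 3.58.1 with an intensity trend, fitted to log2(normalized count + 1) over the 13486 features that averaged 5 or more, with Benjamini-Hochberg adjustment over all of them and a threshold of 0.05. Ratios within libraries and single genes were compared with exact two-sided permutation tests. The labels number each library but do not say whether RNA of several rats was pooled, and p-values measure only the spread between these samples. The members, the pathway and marker lists and the tests were chosen with earlier results of these data known. Named are all members, pathway genes that passed, the 3 highest and the 3 lowest of that list, and markers that passed; exceptions are marked where they stand, and 1 pathway gene is not reported here. Promoters came from RefSeq (GRCr8) and no coordinates of the table were taken from it. The alternatives tried were no filter, minimum means of 1 and 20, pseudocounts of 0.5 and 5, equal library totals, quantile normalization, no trend, robust moderation, a replicate block and each library left out. The ratio of group means was chosen after seeing the data. The planned order of members per coding length was not made, and coding lengths were not used here. The limma fit was also run on simulated counts with the same dispersion for all features and without lane or replicate structure. That run does not measure the error of the calls in these data. Tables came from pandas 2.3.3, numpy 2.4.6 and scipy 1.17.1 and the plots from matplotlib 3.10.9, all under Python 3.11.15.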

Additional observations from a re-analysis of the deposited data

How the results depend on the processing

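The count of features that passed was 283, and became 98 with no filter, 522 with quantile normalization, 31 with no intensity trend, 561 with the replicate block, and 86 to 341 with a library left out. Members that passed numbered 0 under every setting except without STZ replicate 3, when Edn1 passed, so leaving out a library gave 0 to 1. Pathway genes that passed went from 1 to 0 at a pseudocount of 0.5, with no filter and with no intensity trend, to 2 at a minimum mean of 20, with quantile normalization and with the replicate block, and to 0 with any library left out. The receptor ratio difference ranged from -0.055 (without control replicate 3) to 0.80 with a library left out, and under the replicate block its exact p was 1.0, with 0.25 for the cyclase ratio, the smallest p that 3 pairs allow.

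Of 151 alternative values of the members' log2 fold changes, 139 kept their direction and their side of the threshold, 11 turned and 1 (Edn1 without STZ replicate 3) newly passed. Edn1 turned to 0.13 as a ratio of group means. With a library left out, values ranged from -0.37 to 0.014 for Ednra, -0.070 to 0.64 for Ednrb, -0.089 to 0.79 for Gucy1a3, -0.38 to 0.0084 for Gucy1b3, -0.16 to 0.24 for Npr1 and -1.67 to 0.24 for Pde5a. Npr1 was -0.0040 with equal library totals and -0.0027 with quantile normalization. None of these had passed before turning, and the cause was not tested.

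The block used the shared replicate numbers. Same-numbered libraries correlated in their deviations from the group means at 0.57, -0.01 and 0.50 over 13486 features for replicates 1, 2 and 3. Control replicate 1 correlated at -0.49 with STZ replicate 3, and control replicate 3 at -0.59 with STZ replicate 1. Control replicate 2 correlated with no STZ library (0.005, -0.01 and 0.006), so it cannot show whether the numbers pair the rats. The olfactory background also rose with the number, at 2.05, 6.33 and 10.02 in control and 1.86, 5.93 and 9.03 in STZ replicates. Among the members, Ece1, Gucy1a3 and Gucy1b3 rose with the number in both groups. Ednra and Npr1 did so in control only and Nos1 in STZ only, while Edn1, Ednrb and Nos3 did so in neither. The part of this background in the members' values was not tested. The main fit used no block, and what the numbers stand for was not tested. The planned edgeR and DESeq2 tests on recovered reads were not run, because a read in STZ replicates 2 and 3 was worth 0.989 and 1.004 normalized counts, too near 1 to be told from rounding by the check applied to the values. A locus length in place of coding length was not run either. Depth limits Nos1 and Nos2 most, at 10 reads or fewer in each library.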

Other observations

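The features whose pattern over the 6 libraries lay nearest to that of Edn1 were Id1, LOC500300 and Ndnl2, by the root mean square difference of centred log2 values among 9314 features with a mean of at least 20. This was 0.62 for Id1, 0.63 for LOC500300 and 0.79 for Ndnl2. The measure was chosen after the Edn1 values were seen, and with 6 libraries it is a description only. Id1, an inhibitor of DNA binding by basic helix-loop-helix factors, gave 41.0, 15.3 and 30.1 normalized counts in control and 10.2, 4.95 and 35.1 in STZ replicates 1, 2 and 3. As in Edn1, STZ replicate 2 was the lowest and STZ replicate 1 the second lowest of all 6 libraries. STZ replicate 3 lay inside the control range of Id1, unlike that of Edn1. LOC500300 gave 197.9, 106.0 and 237.1 in control and 50.1, 68.2 and 328.3 in STZ replicates, with both STZ replicates 1 and 2 below and STZ replicate 3 above all control rats. Neither passed the limma test, with adjusted p-values of 0.476 and 0.661.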
